A study of Mus musculus with 9 samples.

Results

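The genes described here are the 10 mouse genes that make and load MHC class II molecules, chosen by their function and matched by symbol to the deposited counts table: Ciita, H2-Aa, H2-Ab1, H2-Eb1, Cd74, H2-DMa, H2-DMb1, H2-DMb2, H2-Oa and H2-Ob. All 10 were found among the 57126 genes of the table, and all 10 passed the filter on low counts that left 17555 genes for testing. RNA was sequenced from plasmacytoid dendritic cells (pDCs), dendritic cells known for making large amounts of type I interferon, that had been sorted by flow cytometry. They had received PBS (phosphate-buffered saline, the control), mtDNA (DNA of mitochondria) or Ox-mtDNA (the same kind of DNA after oxidation). Each of the 3 groups had 3 libraries, numbered replicate 1 to 3 in the labels. The strain, sex and age of the mice, the dose and the time of treatment are not given in the sources used here, nor is whether replicates came from separate animals. A p-value here therefore reflects only how far these libraries spread.

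MHC class II molecules are pairs of an alpha and a beta chain that carry peptides from endosomes to the cell surface, where CD4+ T cells read them. The invariant chain, encoded by Cd74, holds the groove closed during transport. The peptide exchange factor DM (H2-DMa with H2-DMb1 or H2-DMb2) then trades the remaining invariant chain fragment for antigenic peptide, and DO (H2-Oa with H2-Ob) inhibits DM. Most of these genes depend on CIITA, the product of Ciita, a coactivator that does not bind DNA itself and is recruited by the RFX, CREB and NF-Y factors that sit on the X and Y boxes of class II promoters. In pDCs Ciita is known to be transcribed from the promoter that B cells also use. The counts used here are per gene and do not separate its promoters.

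The X and Y boxes are shown first because they were searched in sequence alone, without the expression values. RefSeq windows from GRCm38.p6 covering 250 bases before the transcription start were used for 7 of the 10 members. No window was found for Ciita or H2-Ab1, and Cd74 was left out of the search. The counts of members below therefore say nothing of Ciita, H2-Ab1 or Cd74. The Y box was searched as TGATTGG and an X box-like sequence as AGNNAC followed at once by NNATG, both on either strand. Where a member held both, the matches did not overlap, but this was not required in the count over all windows. TGATTGG was found for 6 of the 7 members, against 7.23% of all 32851 windows of this length. The X box-like sequence was found for 4 of the 7, against 2.6% of all windows, and these 4 members also held TGATTGG, against 0.195% of all windows. The stretches around the Y box are printed 5′ to 3′ on the gene's strand, with both matches in capitals.
H2-Aa (chr17:34287861-34287918, minus strand): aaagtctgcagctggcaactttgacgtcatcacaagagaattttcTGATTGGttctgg
H2-Eb1 (chr17:34305761-34305818, plus strand): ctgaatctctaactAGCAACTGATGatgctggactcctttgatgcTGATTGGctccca
H2-DMb1 (chr17:34153083-34153140, plus strand): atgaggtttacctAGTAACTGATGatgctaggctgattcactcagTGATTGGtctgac
H2-DMb2 (chr17:34145112-34145169, plus strand): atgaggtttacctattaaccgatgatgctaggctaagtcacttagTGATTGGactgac
H2-Ob (chr17:34238801-34238858, plus strand): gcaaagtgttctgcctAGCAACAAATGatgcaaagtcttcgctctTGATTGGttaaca
H2-Oa (chr17:34092289-34092346, plus strand): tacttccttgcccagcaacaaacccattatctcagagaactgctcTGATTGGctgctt
In H2-Eb1, H2-DMb1 and H2-Ob the X box-like match lay 20, 21 and 18 bases before the Y box. In H2-Oa it lay 85 bases away, outside the stretch shown. H2-Aa and H2-DMb2 held only the Y box pattern, and the windows of H2-DMa held neither. A match is a run of letters, and its absence says only that these letters are not in this window.

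Total counts per library ranged from 16029951 to 25378884. The members took 0.445% to 0.785% of all counts of a library, and the smallest count of any member in any library was 177, so counting error was small beside the differences between replicates. Replicate 3 was unlike the others in each of the 3 groups. Chi-square per degree of freedom, near 1 where only counting error separates libraries, was 239 to 347 between them and the others of their group, against 20.9 between PBS replicates 1 and 2 and 15.4 between mtDNA replicates 1 and 2. Replicates 1 and 2 of Ox-mtDNA also differed more from each other (165). The sorted cells carried pDC markers, with Siglech, a surface receptor of mouse pDCs, at 1194 to 2440 CPM (counts scaled to library size with edgeR's TMM factors) and 15 pDC markers summing to 5005 CPM in Ox-mtDNA replicate 2 and to 7410 to 13037 CPM elsewhere. Because the samples are bulk RNA, fewer cells of a type and less RNA per cell cannot be told apart.

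Levels were compared between genes as CPM per kb of exon. Cd74 was the most abundant member, at 1761 ± 561 CPM per kb in PBS (SD, n = 3), and its lowest library (1142) lay just above the highest library of H2-Aa (1136). The alpha chain H2-Aa (838 ± 92.8 in PBS, SD, n = 3) and the beta chain H2-Ab1 (712 ± 144 in PBS, SD, n = 3) came next and overlapped. H2-Eb1, the other classical beta chain, was lower at 335 ± 25.5 CPM per kb in PBS (SD, n = 3), with its highest library (465) just below the lowest of H2-Ab1 (469). H2-Ea, the partner alpha chain of H2-Eb1 and listed as a pseudogene in the annotation used for names, was at 0 to 1.55 CPM and was not tested.

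The DM and DO genes were less abundant. H2-DMa was at 113 ± 12.5 and H2-DMb1 at 107 ± 7.74 CPM per kb in PBS (SD, n = 3 each), and the ranges of the pair overlapped. H2-DMb2 (23.6 ± 1.29), H2-Oa (25.2 ± 5.26) and H2-Ob (20.4 ± 2.23) were near each other in PBS (SD, n = 3 each, CPM per kb), and all libraries of H2-DMb2 (13.6 to 25.4) lay below all libraries of H2-DMb1 (50.6 to 138). Ciita had the lowest median, 12.6 CPM per kb, with a range from 0.817 to 31.0. H2-DMb1 and H2-DMb2 are close copies: 26.6% of the windows of 50 bases in the H2-DMb1 transcript occur unchanged in H2-DMb2, and fragments that align to both were not counted, so their levels are uncertain. H2-Oa shares 29.5% of its exon bases with the antisense gene BC051537, and counting did not use strand.

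**Figure D1:**
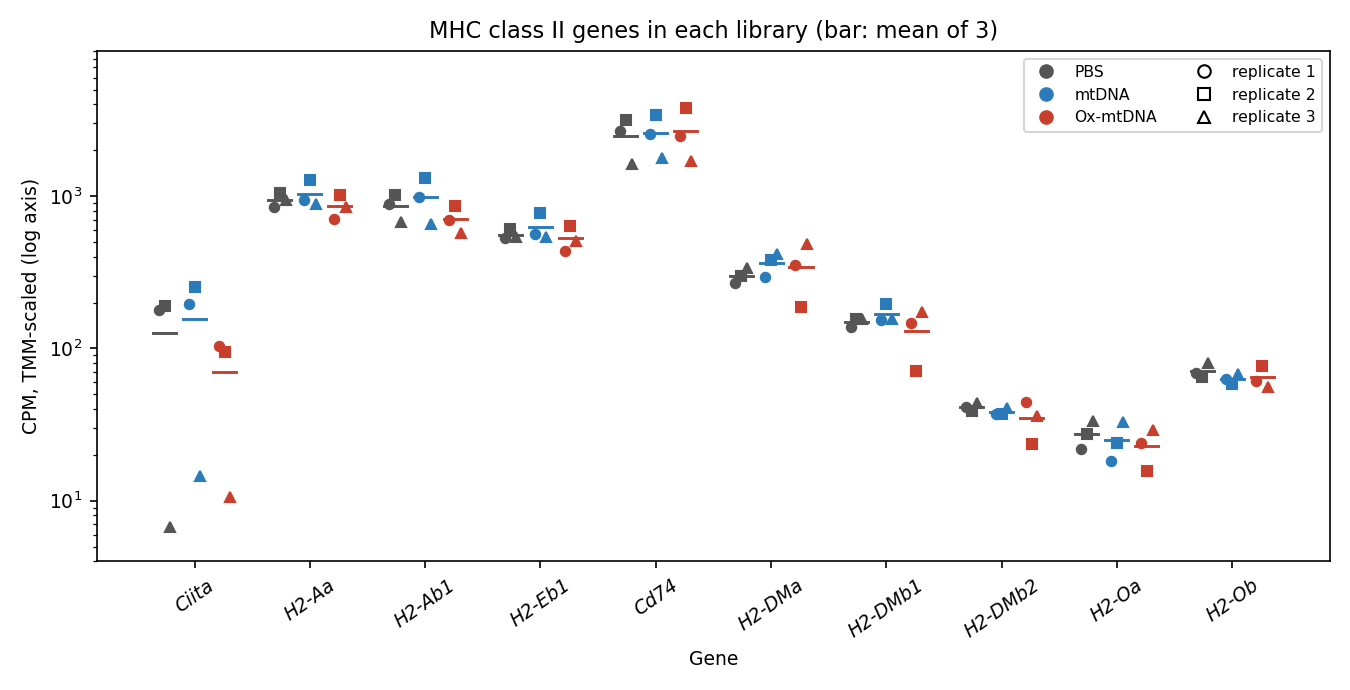
CPM of each class II gene (log axis) in the 9 libraries, by group (colour) and replicate number (marker), with a bar for the mean of each group. Cd74 lies above all other members in every library, and Ciita is at 6.7 to 14.5 CPM in the replicate 3 libraries against 95.3 to 255 CPM in the other 6.

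Ciita (ENSMUSG00000022504.11, chromosome 16, 10297923 to 10346282, GRCm39, as are all gene coordinates below) was at 180, 191 and 6.7 CPM in PBS replicates 1, 2 and 3. It was at 195, 255 and 14.5 CPM after mtDNA and at 104, 95.3 and 10.6 CPM after Ox-mtDNA. Replicate 3 was far below the others in every group, and within replicates 1 and 2 both Ox-mtDNA libraries were below all PBS and mtDNA libraries. This subset was looked at with the values known, and no share over all genes was formed for it. With replicate 3 included, the groups overlapped in every comparison. Relative to the mean of replicates 1 and 2, replicate 3 differed by -4.76, -3.94 and -3.21 on the log2 scale in PBS, mtDNA and Ox-mtDNA.

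The classical chains had much smaller gaps. In PBS the same log2 difference was -0.012 for H2-Aa, -0.064 for H2-Eb1 and -0.50 for H2-Ab1. For Cd74 it was -0.85 in PBS, -0.73 after mtDNA and -0.84 after Ox-mtDNA. The DM and DO genes had positive differences in PBS, from 0.079 for H2-DMb1 to 0.44 for H2-Oa. The gap of Ciita was thus larger than that of every other member, in all 3 groups.

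GC content moved with the gap of replicate 3. The 2842 tested genes of 55 to 60% GC had a median log2 difference of -1.77 in PBS, -1.39 in mtDNA and -1.21 in Ox-mtDNA, and the 4374 genes under 45% GC had medians of 0.49, 0.24 and 0.21. The longest transcript of Ciita has 55.2% GC. Among the 1548 tested genes within 1 percentage point of it, the median difference in PBS was -0.90, and 8.53% lay below Ciita. H2-Ab1, Cd74 and H2-Oa have a higher GC content (57.3%, 56.6% and 56.5%) and smaller differences. The part of GC in the Ciita gap was not tested further.

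**Figure D2:**
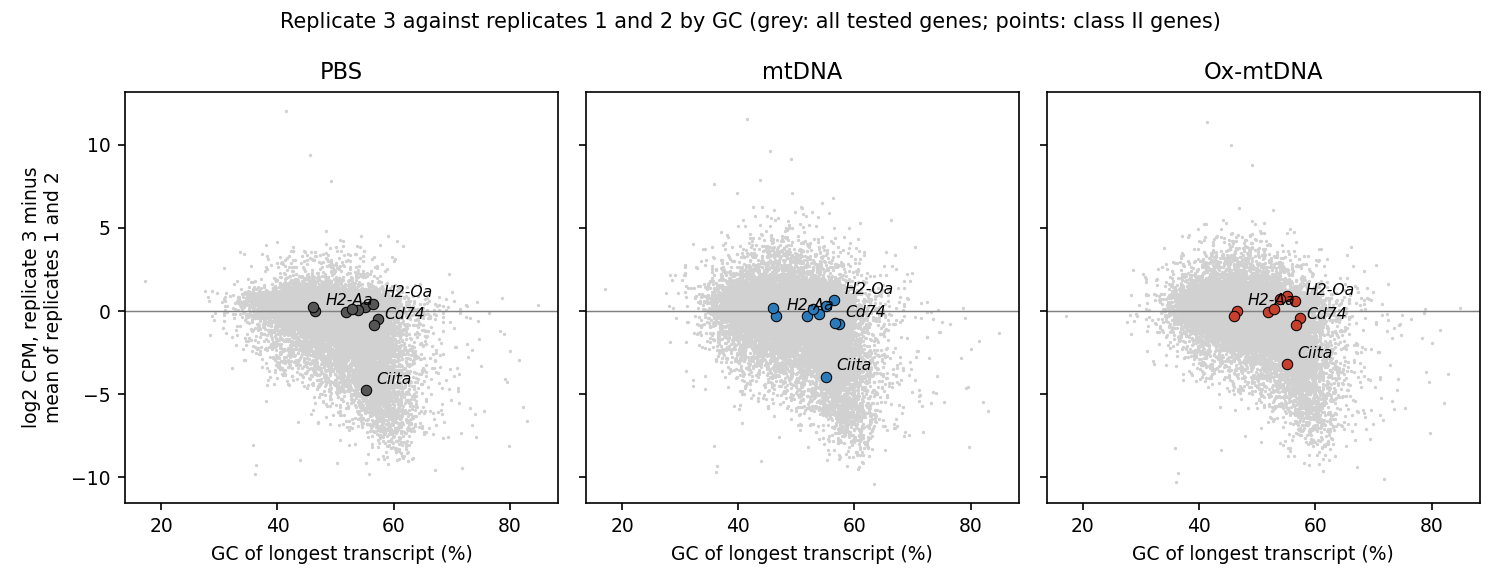
Log2 CPM of replicate 3 minus the mean of replicates 1 and 2 within each group, against the GC content of the longest transcript, for all tested genes (grey) and the class II genes (coloured). Genes of high GC reach far below 0; Ciita lies at -4.76, -3.94 and -3.21, and the other members lie between -0.85 and 0.92.

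Ox-mtDNA was set against PBS to measure the response to the oxidized form. The fitted differences of class II genes were small beside their errors: 0 of 10 members passed an adjusted p of 0.05 in the edgeR quasi-likelihood test (0% of 17555 genes passed), and 0 of 10 were at an unadjusted p under 0.05 (9.81% of all genes). Fitted log2 fold changes were negative for 8 of 10 members (46.2% of all genes), with a median of -0.17 against 0.055 over all genes. The median size of the fold change, without sign, was 0.20 for the members and 0.41 for all genes. DESeq2 called 0 of 10 members (2.11% of all genes). No member had groups that did not overlap (15.5% of all genes). With the replicate number as a block 0 of 10 were at an unadjusted p under 0.05 (19.1% of all genes).

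H2-Ab1 (ENSMUSG00000073421.7, chromosome 17, 34482183 to 34488393), the beta chain of the I-A molecule, was at 893, 1021 and 676 CPM in PBS replicates 1, 2 and 3 and at 697, 858 and 569 CPM after Ox-mtDNA. Each Ox-mtDNA library was below the PBS library of its number, though the groups overlapped. The log2 fold change was -0.29 (SE 0.32, 95% interval -1.03 to 0.46, edgeR adjusted p = 0.925), with differences of -0.36, -0.25 and -0.25 in replicates 1, 2 and 3. H2-Aa (ENSMUSG00000036594.16, chromosome 17, 34501718 to 34506797), the alpha chain that pairs with it, was the other member lower in all 3 pairs. Being lower in all 3 pairs was found for 2 of 10 members and for 17.6% of all genes, and 0 members were higher in all 3 (20.2%).

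H2-Aa was at 845, 1054 and 936 CPM in PBS and at 705, 1016 and 845 CPM after Ox-mtDNA. Its log2 fold change was -0.14 (SE 0.26, edgeR adjusted p = 0.995). H2-Eb1 (chromosome 17, 34524841 to 34535648) was at 528, 608 and 542 CPM in PBS and at 435, 638 and 509 CPM after Ox-mtDNA, with a log2 fold change of -0.086. For all 3 chains of I-A and I-E the fitted difference was smaller than its SE. Cd74 (ENSMUSG00000024610.17, chromosome 18, 60936920 to 60945724) was at 2692, 3169 and 1618 CPM in PBS and at 2483, 3798 and 1713 CPM after Ox-mtDNA. Its log2 fold change was 0.096, and its 95% interval of -0.83 to 1.02 does not exclude a change of either sign.

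Ciita had a negative log2 difference in replicates 1 (-0.79) and 2 (-1.0) and a positive one in replicate 3 (0.65), from 177 counts in PBS and 206 after Ox-mtDNA. Over all 9 libraries its log2 fold change was -0.85 (SE 1.33, 95% interval -3.92 to 2.23, edgeR adjusted p = 0.978), and with the replicate number as a block it was -0.40 (SE 0.32, adjusted p = 0.533). Fitted to replicates 1 and 2 alone, a choice made with the values known, it was -0.89 (SE 0.21, adjusted p = 0.18). There 0 of 10 members passed the adjusted threshold, against 0.146% of all genes. Without replicate 3 and Ox-mtDNA replicate 2, a choice made after seeing the data that leaves 1 Ox-mtDNA library, Ciita was at -0.84. In that fit 1 of 10 members (Ciita) passed, against 21.6% of all genes. With 1 Ox-mtDNA library the fit cannot measure the spread of this group, so no conclusion is drawn from the genes that passed.

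The DM genes split by library. H2-DMb1 (ENSMUSG00000079547.5, chromosome 17, 34372046 to 34379204) was at 137, 157 and 155 CPM in PBS and at 147, 71.0 and 173 CPM after Ox-mtDNA. H2-DMa (ENSMUSG00000037649.11, chromosome 17, 34341806 to 34358075) was at 269, 297 and 336 CPM in PBS and at 354, 188 and 488 CPM after Ox-mtDNA. Ox-mtDNA replicate 2 was the lowest of all 9 libraries for both, and the other Ox-mtDNA libraries were above the PBS library of their number. The share of all genes that were lowest or highest in Ox-mtDNA replicate 2 was not formed, here or for the genes and markers below. The log2 differences of replicates 1, 2 and 3 were 0.39, -0.66 and 0.54 for H2-DMa and 0.10, -1.14 and 0.15 for H2-DMb1.

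The same library was also lowest for H2-DMb2 (chromosome 17, 34362281 to 34370529), at 23.7 CPM against 36.1 to 44.4 CPM elsewhere. It was lowest too for H2-Oa, the DO alpha chain (chromosome 17, 34311314 to 34314208), at 15.7 CPM against 18.1 to 33.2 CPM. It was highest for Cd74 (3798 CPM, against 1618 to 3402). For H2-Ob, the DO beta chain, it was the second highest at 77.0 CPM, below PBS replicate 3 (80.1). The fitted log2 fold changes over all libraries were 0.19 for H2-DMa, -0.20 for H2-DMb1, -0.25 for H2-DMb2, -0.26 for H2-Oa and -0.14 for H2-Ob, all with an edgeR adjusted p of 0.924 or more. The summed DM level per kb was 3.70 times that of DO in Ox-mtDNA replicate 2 and 4.90 to 7.83 times in the other 8 libraries.

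Markers of other cells also stood apart in this library. Of the 10 B cell markers 6 were higher in Ox-mtDNA replicate 2 than in any other library, among them Cd79a, Ms4a1, Pax5 and Ebf1, and 4 lay within the range of the others (Cd79b, Fcer2a, Ighd and Ighm). Cd79a was at 182 CPM there against 33.4 to 80.9 CPM in the rest, and Cd79b at 67.7 against 16.2 to 102 CPM. The 10 markers together were at 3153 CPM, within the range of the other libraries (1799 to 3343), and Ighm, at 1511 to 2988 CPM, made up most of the sum. The pDC marker sum was the lowest there (5005 CPM). B cells are known to express class II, DM and DO genes. The part of B cells in the class II levels of this library was not tested.

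**Figure D3:**
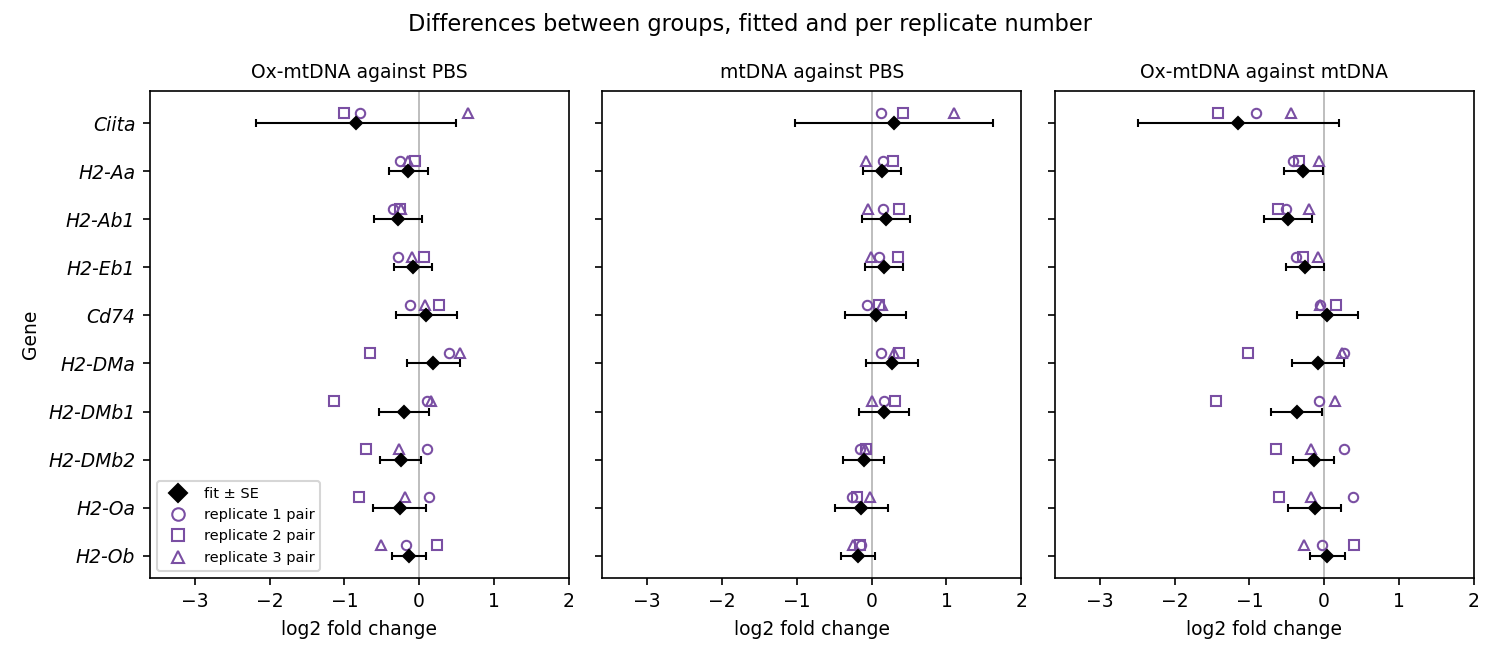
Log2 fold change of each class II gene in the 3 comparisons, fitted over 9 libraries (diamond, with the SE as bars), and log2 CPM difference between libraries of the same replicate number (open markers). Most fitted values lie within 1 SE of 0; the Ciita bar is the widest (SE 1.32 to 1.34), and the replicate 2 pair of H2-DMa and H2-DMb1 lies apart in both comparisons that use Ox-mtDNA.

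mtDNA was set against PBS to measure the response to the form without oxidation. Here too 0 of 10 members passed the adjusted threshold in edgeR (0% of all genes), 0 were at an unadjusted p under 0.05 (2.62% of all genes), and DESeq2 called 0 (0.0797% of all genes). Fitted log2 fold changes were positive for 7 of 10 members, with a median of 0.15 against 0.019 over all genes, and were negative for 3 (48.0% of all genes). No member had groups that did not overlap (10.5%), and with the replicate block 0 were at an unadjusted p under 0.05 (5.68%). The members lower in the fit were H2-DMb2 (-0.11), H2-Oa (-0.14) and H2-Ob (-0.19). These 3 were also lower in all 3 pairs (19.4% of all genes), and Ciita, H2-DMa and H2-DMb1 were higher in all 3 pairs (20.8% of all genes). Without replicate 3 and Ox-mtDNA replicate 2, 0 of 10 members passed (0.276% of all genes). In the unpaired fit without mtDNA replicate 2, 8 of 10 members were negative, with a median of -0.088. That fit keeps PBS replicate 2, so replicate 3 weighs more in mtDNA than in PBS. By pair, the median log2 difference of the members was 0.11, 0.29 and -0.010 in replicates 1, 2 and 3.

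mtDNA replicate 2 was the highest of all 9 libraries for Ciita (255 CPM), H2-Aa (1281 CPM), H2-Ab1 (1315 CPM), H2-Eb1 (776 CPM) and H2-DMb1 (194 CPM). The share of all genes that were highest in this library was not formed. In mtDNA replicate 3 the chains were near their PBS level, with log2 differences of -0.078 for H2-Aa, -0.045 for H2-Ab1 and -0.0044 for H2-Eb1. H2-DMa was at 293, 382 and 414 CPM in mtDNA replicates 1, 2 and 3. Its log2 fold change against PBS was 0.27 (SE 0.35, 95% interval -0.54 to 1.08), the second largest after that of Ciita (0.30, SE 1.32). H2-Ob (chromosome 17, 34457877 to 34468283) was at 69.3, 65.0 and 80.1 CPM in PBS and at 62.7, 58.2 and 67.6 CPM after mtDNA, lower by 0.14 to 0.24 on the log2 scale in each pair, and its fitted difference was within the spread of the replicates (SE 0.23).

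Ox-mtDNA was set against mtDNA to measure what oxidation adds, with the same libraries as in the comparisons with PBS. Of the 10 fitted log2 fold changes 8 were negative (45.8% of all genes), with a median of -0.20 against 0.043 over all genes, and 7 were negative without Ox-mtDNA replicate 2 or without mtDNA replicate 3. In edgeR 0 of 10 members passed the adjusted threshold (0% of all genes) and 0 were at an unadjusted p under 0.05 (2.40%). DESeq2 called 0 (0.00570% of all genes). Ciita, H2-Aa, H2-Ab1 and H2-Eb1 were lower in all 3 pairs, 4 of 10 members against 12.7% of all genes, and 0 members were higher in all 3 pairs (15.1%).

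H2-Ab1 was at 993, 1315 and 655 CPM after mtDNA and at 697, 858 and 569 CPM after Ox-mtDNA. The log2 differences were -0.51, -0.62 and -0.20 in replicates 1, 2 and 3, and the fitted value was -0.48 (SE 0.32, 95% interval -1.22 to 0.26). Ciita differed by -0.91, -1.42 and -0.44, with a fitted value of -1.15 (SE 1.34). With the replicate block, Ciita was at -0.90 (SE 0.32) and H2-Ab1 at -0.45 (SE 0.17), both with an edgeR adjusted p = 0.729. In that fit 2 of 10 members had an unadjusted p under 0.05, against 6.81% of all genes. No member had groups that did not overlap (4.83% of all genes). Fitted to replicates 1 and 2 alone, Ciita was at -1.17 (SE 0.21, edgeR adjusted p = 0.138) and H2-Ab1 at -0.56 (SE 0.22, adjusted p = 0.323), and 0 of 10 members passed (0% of all genes). Without replicate 3 and Ox-mtDNA replicate 2, a choice made after seeing the data that leaves 1 Ox-mtDNA library, Ciita (-1.12) and H2-Ab1 (-0.74) passed, against 25.3% of all genes.

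H2-Aa was at 943, 1281 and 887 CPM after mtDNA, and Ox-mtDNA differed from this by -0.28 (log2, SE 0.26). H2-Eb1 was at 566, 776 and 541 CPM after mtDNA, and its log2 fold change was -0.25 (SE 0.25). Cd74 was at 2572, 3402 and 1787 CPM after mtDNA, and its log2 fold change was 0.043 (SE 0.40). Its log2 differences were -0.050, 0.16 and -0.061 in replicates 1, 2 and 3. Per kb, Cd74 was 1.46, 1.67 and 0.993 times the sum of H2-Aa and H2-Ab1 in Ox-mtDNA replicates 1, 2 and 3, against 1.10, 1.08 and 0.951 times after mtDNA and 1.28, 1.26 and 0.823 times in PBS. In each replicate number this ratio was highest after Ox-mtDNA. The ratio of H2-Aa to H2-Ab1 per kb was 1.02 to 1.27 in replicates 1 and 2 and 1.46 to 1.60 in replicate 3, and it too was highest after Ox-mtDNA within each number. So was that of H2-DMa to the sum of H2-DMb1 and H2-DMb2. The ratios of DM to DO, of H2-DMb1 to H2-DMb2 and of Ciita to H2-Ab1 were not in this order. These orders were not tested, and no share over other gene pairs was formed.

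The other genes of the pathway were taken as 5 lists with 27 entries in all. No gene of these lists passed over all genes in edgeR in any comparison. At an unadjusted p under 0.05 were 7 of the 26 tested entries in Ox-mtDNA against PBS, 2 in mtDNA against PBS and 2 in Ox-mtDNA against mtDNA, beside the 9.81%, 2.62% and 2.40% of all genes given above.

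Of the 7 regulators of Ciita, 3 had positive and 4 negative log2 fold changes in Ox-mtDNA against PBS, and 0 passed in either direction. Irf1, an interferon-induced factor that acts on the interferon-responsive promoter of Ciita, was at 249, 314 and 389 CPM in PBS and at 198, 153 and 120 CPM after Ox-mtDNA. All Ox-mtDNA libraries were below all PBS libraries, with a log2 fold change of -1.01 (SE 0.28, edgeR adjusted p = 0.472). Against mtDNA its log2 fold change was -0.74 (SE 0.28), again with groups that did not overlap, and it did not pass the adjusted threshold.

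Prdm1 encodes BLIMP1, a repressor of Ciita transcription. It was at 10.6, 5.6 and 6.4 CPM in PBS, at 13.1, 11.7 and 44.6 CPM after mtDNA and at 18.2, 48.6 and 44.0 CPM after Ox-mtDNA. Both treated groups were above PBS in every library, with log2 fold changes of 2.30 (SE 0.64, edgeR adjusted p = 0.472) for Ox-mtDNA and 1.62 (SE 0.63) for mtDNA. DESeq2 called the former (adjusted p = 0.0421). Without mtDNA replicate 3 the value for mtDNA was 0.67. Irf8, a factor of the dendritic lineage, and Spi1 are named after their values were seen. Irf8 was at 389 to 1327 CPM in the replicate 3 libraries and at 808 to 4077 CPM elsewhere, and Spi1, which encodes PU.1, was at 12.8 to 24.9 against 135 to 257 CPM.

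Of the 3 genes of class II surface turnover, Cd83 and Marchf1 act on the same step: the ligase MARCH1, encoded by Marchf1, ubiquitinates class II molecules and sends them to degradation, and CD83 opposes it. Cd83 was at 34.6, 26.3 and 23.0 CPM in PBS, at 70.0, 90.5 and 424 CPM after mtDNA and at 119, 124 and 200 CPM after Ox-mtDNA. Every treated library was above every PBS library. The log2 fold changes were 2.40 (SE 0.69, edgeR adjusted p = 0.472) for Ox-mtDNA and 2.80 (SE 0.70, adjusted p = 1) for mtDNA, and DESeq2 called the former (adjusted p = 0.0461). Without mtDNA replicate 3 the value for mtDNA was 1.47.

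Marchf1 was at 69.4, 71.9 and 122 CPM in PBS, at 70.6, 66.2 and 61.2 CPM after mtDNA and at 46.6, 27.1 and 53.2 CPM after Ox-mtDNA. The Ox-mtDNA libraries were below all the others. Its log2 fold change was -1.05 (SE 0.34, edgeR adjusted p = 0.472) against PBS and -0.64 (SE 0.34) against mtDNA. Neither passed, and the levels of both genes are RNA levels that say nothing of class II protein at the surface.

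**Figure D4:**
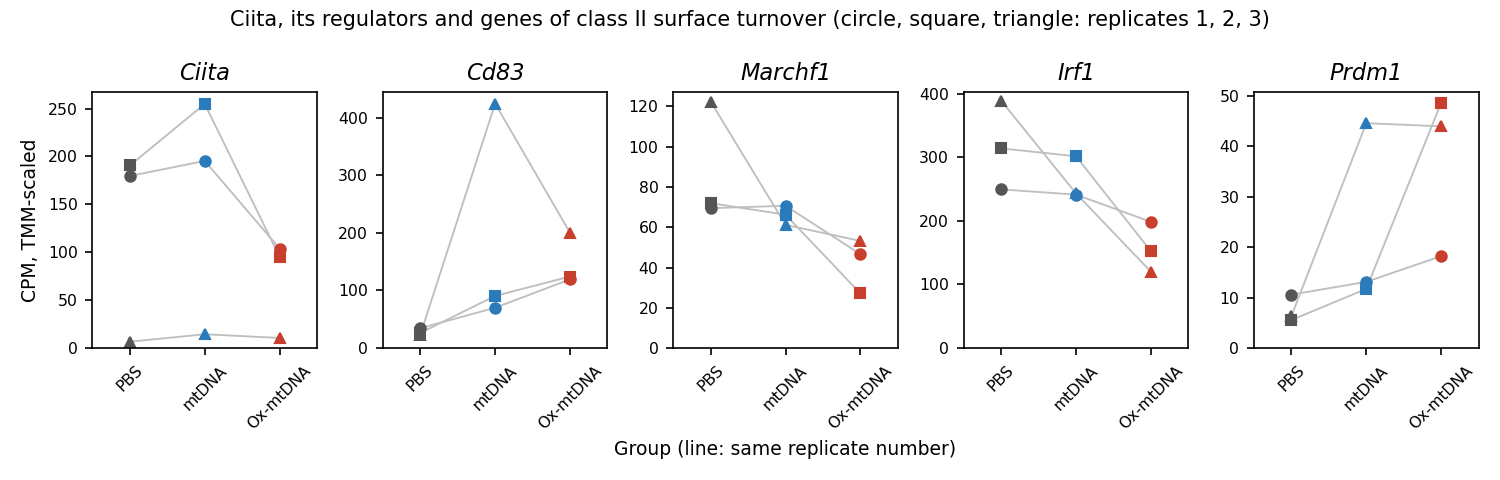
CPM of Ciita, of the turnover genes Cd83 and Marchf1 and of Irf1 and Prdm1 in each library, with a line joining libraries of the same replicate number (circle, square and triangle for 1, 2 and 3). Cd83 and Prdm1 are higher in every treated library than in PBS, Marchf1 and Irf1 are lowest after Ox-mtDNA, and Ciita is at 6.7 to 14.5 CPM in replicate 3.

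The factors that bind class II promoters gave 1 gene at an unadjusted p under 0.05 among 7 in Ox-mtDNA against PBS. Creb1, the factor of the X box region, was at 166, 137 and 219 CPM in PBS and at 76.3, 124 and 76.3 CPM after Ox-mtDNA. These groups did not overlap, and the fitted log2 value was -0.92 (SE 0.31, edgeR adjusted p = 0.472). Rfx5, Rfxank and Rfxap, the subunits of RFX, had log2 fold changes of -0.30, -0.068 and -0.075, and Nfya and Nfyc, subunits of the Y box factor, had 0.084 and 0.083. Nfyb, the remaining subunit, was at 0.53, with differences of -0.24, 1.51 and -0.085 in replicates 1, 2 and 3. The gene of this list nearest the threshold in mtDNA against PBS was Rfxank (-0.33, SE 0.24).

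Of the 8 genes of antigen processing, 6 had negative fold changes in Ox-mtDNA against PBS (46.2% of all genes) and 7 in mtDNA against PBS (48.0% of all genes). Ctsl, cathepsin L, was at 718, 1058 and 1510 CPM in PBS, at 541, 869 and 691 CPM after mtDNA and at 729, 434 and 668 CPM after Ox-mtDNA, with log2 fold changes of -0.84 (SE 0.36) for Ox-mtDNA and -0.65 (SE 0.35) for mtDNA. Ctss, cathepsin S, which trims the invariant chain, had a log2 fold change of -0.26 for Ox-mtDNA and overlapped between all groups. Lgmn, the protease legumain, had 0.54 (SE 0.39) in mtDNA against PBS and -0.43 (SE 0.39) in Ox-mtDNA against mtDNA. Ctsd, cathepsin D, was at 705 CPM in Ox-mtDNA replicate 2, against 227 to 307 CPM in the rest. H2-Eb2, a class II beta-like gene beside H2-Eb1, was at 7.8 to 12.8 CPM in PBS and at 4.1 to 7.7 CPM after mtDNA, with groups that did not overlap and a log2 fold change of -0.95 (SE 0.60).

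The genes whose profile over the 9 libraries was most like a class II profile were found by the root-mean-square difference of log2 CPM, each gene centred on its own mean, among 9795 genes of at least 10 CPM. For the mean profile of H2-Aa, H2-Ab1, H2-Eb1 and Cd74 they were Usp54 (0.070), Phtf1os (0.11), Abhd2 (0.12), Haus8 (0.13) and Zfp688 (0.14), in log2 units per library. For Ciita they were Trim14 (0.24), Lag3 (0.27), Parp10 (0.27), Klf13 (0.29) and Gm49380 (0.31). Being chosen by this profile, these genes must share the low replicate 3 level of Ciita: Trim14 was at 3.83 to 6.14 CPM in replicate 3 and at 33.0 to 106 CPM elsewhere.

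Among the other cells a sort could hold, 8 T cell genes summed to 37.0 to 54.0 CPM, with the defining gene Cd3e at 0 to 1.1 CPM, and 6 neutrophil markers summed to 1.10 to 10.3 CPM. The 8 markers of type 1 conventional dendritic cells, which express class II strongly, summed to 324 to 643 CPM in PBS, 189 to 573 CPM after mtDNA and 251 to 382 CPM after Ox-mtDNA, and 7 of the 8 had negative fold changes in Ox-mtDNA against PBS. Their defining gene Xcr1 was at 0.6 to 4.5 CPM, Batf3 at 0.54 to 3.3 CPM and Tlr3 at 0.26 to 1.2 CPM. Others of the list were higher, with Clec9a at 6.5 to 108 CPM and Cadm1 at 20.1 to 130 CPM. Wdfy4 made up 428 of the 618 CPM in PBS replicate 1. In PBS replicate 3 it made up 33.9 of the 324 CPM, with Cadm1 at 113 and Clec9a at 108 CPM. The 8 markers of type 2 conventional dendritic cells summed to 306 to 346 CPM in PBS, 313 to 573 CPM after mtDNA and 301 to 388 CPM after Ox-mtDNA. The highest of these sums, in mtDNA replicate 3, was mostly Irf4 (405 CPM there, against 74.8 to 248 CPM elsewhere). Sirpa was at 87.2 CPM in that library and at 154 to 179 CPM in PBS. The 9 markers of monocytes and macrophages summed to 1219 to 2270 CPM in PBS, 957 to 1123 CPM after mtDNA and 685 to 1148 CPM after Ox-mtDNA, most of it Ccr2 and Ly6c2, which pDCs also express, and the macrophage gene C1qa was at 0 to 0.42 CPM. The 6 natural killer cell markers summed to 19.9 to 122 CPM, most of it Klrk1. Of the 15 pDC markers, 12 had negative and 3 positive fold changes in Ox-mtDNA against PBS, with a median of -0.68. Over all genes 46.2% were negative in that comparison. The B cell markers had 10 of 10 negative fold changes in mtDNA against PBS (48.0% of all genes), with a median of -0.72. Of the same 10, 7 were positive in Ox-mtDNA against PBS and 9 in Ox-mtDNA against mtDNA. The part of these cells in the class II levels was not tested.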

How the data were processed

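RNA was measured as the deposited raw counts per gene, with no scaling by the authors. The submitters' processing notes name fastp 0.23.4, STAR 2.7.11b and the GRCm39 build. According to the headers of the deposited table, featureCounts 2.0.1 assigned fragments to exons of GENCODE M34 genes, ignoring strand and multi-mapping reads and counting a fragment for each gene it overlapped. Groups and replicate numbers came from the labels. After filterByExpr (minimum count 10), edgeR 4.0.16 (R 4.3.3) estimated group means from the 9 libraries by robust quasi-likelihood, leaving 6 residual degrees of freedom. Benjamini-Hochberg adjustment ran over 17555 genes, with a threshold of 0.05. RLE factors, DESeq2 1.42.0, 2 other filters, the replicate number as a block, fits on 6 libraries and each library left out were the alternatives. Log2 differences between single libraries used a prior count of 2. Same-numbered libraries deviated together (correlations of 0.487 to 0.897 over 9 pairs), and the numbers were taken to pair them. Libraries of different numbers had correlations of -0.871 to 0.708. PBS replicate 1 had 0.549 with Ox-mtDNA replicate 2, above the 0.487 of PBS replicate 2 with that library. The correlations thus set replicate 3 apart but do not show that replicates 1 and 2 are paired by number. That pairing is an assumption, since the labels do not say what a number marks. All members were named, with the 2 smallest p-values of each pathway list, the 5 nearest profiles and further genes where stated; a gene that the rule names is not reported here. Rfx5, Rfxap, Nfya, Nfyc, Ctss and single marker genes were added after their values were seen. Symbols were matched for 51884 genes, with 3 list entries under another symbol. GC content came from GENCODE M21 transcripts for 95.4% of tested genes. Members, lists and motifs were chosen with earlier results of these data known.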

Additional observations from a re-analysis of the deposited data

How the results depend on the processing

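The count of class II members passing the adjusted threshold was 0 in all 3 comparisons under RLE size factors, DESeq2, both other filters, the replicate block, the 6 libraries of a comparison, replicates 1 and 2 only and each left-out library (0 to 0). Without replicate 3 and Ox-mtDNA replicate 2, chosen after seeing the data, 1 member (Ciita, -0.84, adjusted p = 0.0228) passed in Ox-mtDNA against PBS, beside 21.6% of all genes, and 2 (Ciita, -1.12, adjusted p = 0.00809, and H2-Ab1, -0.74, adjusted p = 0.0467) in Ox-mtDNA against mtDNA, beside 25.3% of all genes. That fit has 2 residual degrees of freedom and 1 Ox-mtDNA library, assumed to vary like the other groups. The replicate block changed no call of a named gene. Of 969 alternative values for single genes, 45 changed sign, all of them without passing the threshold, and 13 newly passed, 2 under DESeq2 and 11 without replicate 3 and Ox-mtDNA replicate 2; the cause was not tested. With the replicate block H2-Eb2 was at -0.089 in Ox-mtDNA against mtDNA. Without a filter Cd74 was at -0.000548 and H2-Eb2 at -0.0348 there. In replicates 1 and 2 only, H2-DMa was at -0.057 and H2-Ob at 0.0508 in Ox-mtDNA against PBS, and Cd83 at 0.61 in Ox-mtDNA against mtDNA. Without replicate 3 and Ox-mtDNA replicate 2, Cd74 (-0.25), H2-DMb2 (0.14) and Nfyb (-0.13) turned against PBS, and Cd74 (-0.27), H2-DMa (0.059), H2-DMb2 (0.25), H2-Oa (0.17), Cd83 (0.56) and H2-Eb2 (-1.27) against mtDNA.

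With 1 library left out, ranges of log2 fold changes that crossed 0 in Ox-mtDNA against PBS were -0.26 to 0.30 for Cd74, -0.21 to 0.47 for H2-DMa, -0.51 to 0.078 for H2-DMb1, -0.26 to 0.012 for H2-Eb1, -0.012 to 0.76 for Ctsd and -0.061 to 0.76 for Nfyb. In mtDNA against PBS they were -0.20 to 0.26 for Cd74, -0.26 to 0.83 for Ciita, -0.059 to 0.21 for H2-Aa, -0.077 to 0.37 for H2-Ab1, -0.029 to 0.22 for H2-Eb1 and -0.45 to 0.035 for H2-Oa. In Ox-mtDNA against mtDNA they were -0.31 to 0.29 for Cd74, -0.79 to 0.93 for Cd83, -0.47 to 0.21 for H2-DMa, -0.34 to 0.067 for H2-DMb2, -0.96 to 0.35 for H2-Eb2, -0.39 to 0.17 for H2-Oa, -0.10 to 0.14 for H2-Ob and -0.68 to 0.059 for Lgmn. The smallest count of a class II member in a library was 177; H2-Eb2 was at 2.57 to 12.8 CPM.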
